A study of Mus musculus with 28 samples.

Results

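Transcripts of 10 genes of immature thymocytes were followed through 4 populations of mouse CD4 T cells by RNA-seq. The genes were Rag1, Rag2, Dntt, Ptcra, Cd8a, Cd8b1, Sox4, Themis, Tox and Cd1d1. They were taken by symbol from 23420 gene symbols in the deposited count files, with earlier results of these data known. Of these genes 10 of 10 were listed and passed the filter on low counts, as did 13338 symbols in all. The cells came from thymus and spleen of male littermates aged 6 to 8 weeks. Every mouse carried a gfp reporter in the Foxp3 gene, either on the wild type allele (Foxp3-gfp, called WT) or on an allele that lacks the enhancer CNS3 (Foxp3-deltaCNS3-gfp, called KO). Each genotype gave regulatory T (Treg) cells of the thymus, its CD4 single-positive cells sorted as non-Treg (CD4SP; the titles write mCD4SP), and splenic Treg populations titled rTreg and aTreg, whose prefixes the labels do not expand. Each population had 3 WT and 4 KO libraries, numbered in the titles. No label ties a number to a separate mouse, and the design text speaks of 2 littermates, so p-values measure the spread between these libraries, which may be technical in part.

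T cell receptor genes are assembled in the thymus by the RAG recombinase, a complex of RAG1 and RAG2 that cuts DNA beside receptor gene segments. Terminal deoxynucleotidyl transferase, the product of Dntt, adds nucleotides at the joints before the ends are ligated. Precursors first pair the rearranged beta chain with the pre-T alpha chain, the product of Ptcra, then become CD4+CD8+ cells that are selected on self peptides and keep 1 of the coreceptors. Rag1, Rag2, Dntt and Ptcra are switched off as selected thymocytes mature, so mature T cells in the spleen ordinarily lack them.

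The library labels were checked on identity genes first. Foxp3, which encodes the defining transcription factor of Treg cells, stood at 446 to 671 CPM (gene counts scaled to library size) in the 21 Treg libraries and at 1.07 to 3.49 CPM in the 7 CD4SP libraries. The coreceptor gene Cd4 stood at 522 to 1182 CPM in all 28. The gene counts of a library summed to between 22037995 and 40754492. Levels below are CPM on library sizes scaled by the TMM method, given as mean ± SD over libraries. Fold changes are log2 values with a standard error (SE) from edgeR's quasi-likelihood test, with Benjamini-Hochberg adjusted p-values (13338 genes, threshold 0.05). The libraries are bulk RNA, so fewer cells of a type and less RNA per cell cannot be told apart.

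Rag1 and Rag2 are neighbours on chromosome 2 and point toward each other. On GRCm38, Rag1 lies at chr2:101638282-101649501 on the minus strand and Rag2 at chr2:101624718-101632529 on the plus strand, with 5752 bases between them. Dntt lies at chr19:41029275-41059525 (plus) and Ptcra at chr17:46755663-46763712 (minus). The 250 bases before the RefSeq start of these 4 genes (GRCm38.p6) are printed because all 4 were lower in the spleen, 3 of them to 0 to 3 counts per group. Capitals mark matches to CAGNTG on either strand, the letters that E proteins, transcription factors of early lymphocytes, are known to bind.

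Rag1, chr2:101649533-101649782, minus strand: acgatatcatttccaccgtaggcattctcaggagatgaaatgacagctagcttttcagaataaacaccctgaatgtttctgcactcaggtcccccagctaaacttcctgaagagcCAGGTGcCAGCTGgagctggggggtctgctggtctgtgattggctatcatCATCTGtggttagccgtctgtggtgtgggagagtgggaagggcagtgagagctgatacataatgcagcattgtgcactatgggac
Rag2, chr2:101624462-101624711, plus strand: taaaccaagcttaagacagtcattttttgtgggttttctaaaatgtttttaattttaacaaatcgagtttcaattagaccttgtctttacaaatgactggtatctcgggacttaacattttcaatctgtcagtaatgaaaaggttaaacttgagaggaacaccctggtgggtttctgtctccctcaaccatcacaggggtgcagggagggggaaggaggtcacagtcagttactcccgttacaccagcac
Ptcra, chr17:46763713-46763962, minus strand: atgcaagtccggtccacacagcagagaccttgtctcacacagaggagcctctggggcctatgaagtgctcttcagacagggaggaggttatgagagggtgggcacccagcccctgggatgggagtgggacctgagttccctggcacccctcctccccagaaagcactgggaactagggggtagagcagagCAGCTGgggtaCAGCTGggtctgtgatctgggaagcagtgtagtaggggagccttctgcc
Dntt, chr19:41029025-41029274, plus strand: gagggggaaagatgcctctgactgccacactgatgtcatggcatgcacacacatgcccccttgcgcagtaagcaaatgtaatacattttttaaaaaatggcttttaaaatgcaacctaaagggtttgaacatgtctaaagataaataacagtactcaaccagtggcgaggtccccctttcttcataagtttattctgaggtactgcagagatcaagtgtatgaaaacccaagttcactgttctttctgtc

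Rag1 held 3 such matches, CAGGTG 135 bases, CAGCTG 128 bases and CATCTG 85 bases before its start, and Ptcra held 2, CAGCTG at 60 and at 49 bases. Rag2 and Dntt held 0 in this window. Of 32851 RefSeq promoters, 44.8% held at least 1 match and 13.2% at least 2, so these counts are a description and not a property of the 4 genes. The letters TGTGGT, the core bound by Runx factors, occurred 2 times before Rag1, at 81 and 67 bases, 1 of them overlapping the CATCTG match, and in 14.05% of all promoters. The letters AGATAA, bound by GATA factors, occurred 1 time before Dntt, at 112 bases, and in 9.99% of all promoters. Promoter entries were found for 7 of the 10 genes.

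One library has to be described before any comparison. KO CD4SP library 2 held more transcript of the recombination genes than any other of the 28 libraries. Rag1 read 47.1 CPM there and 2.25, 4.27 and 2.46 in KO CD4SP libraries 1, 3 and 4. Rag2 read 32.6 against 3.52, 2.59 and 1.21, and Ptcra 26.2 against 1.88, 2.59 and 1.10. Dntt read 308.5 against 52.3, 41.3 and 38.6 CPM. As multiples of the mean of the other 3 libraries these are 15.7 for Rag1, 13.4 for Rag2, 14.1 for Ptcra and 7.01 for Dntt, and Cd8a followed at 4.26. By this multiple with a pseudocount, Rag1 ranked 14 and Dntt 67 among 13338 genes. The other 5 genes stayed close to their group: Sox4 1.29, Cd8b1 1.28, Themis 1.07, Tox 0.931 and Cd1d1 0.861. Over all genes, 9.499% were more than 2-fold above the mean of the other 3.

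Genes of CD4+CD8+ and earlier thymocytes went with them. Of a list of 19 tested pre-selection genes, 10 were more than 2-fold higher in library 2, among them Notch3, a receptor of early thymocytes (5.56 against 0.218 CPM), Arpp21 (80.7 against 8.26) and Cd24a, a surface protein lost on maturation (108 against 13.9 CPM), which were picked after their values were seen. Of 10 tested genes of late maturation and emigration, 0 were. Markers of other cells were also raised in this library. The summed level of 10 B cell markers was 38.0 CPM there and 7.34 to 8.47 in the other 3, that of 9 myeloid markers 236.9 and 89.2 to 105.3, and that of 9 CD8 T cell markers 58.2 and 18.02 to 21.3. The sum of gamma-delta and NKT markers was 15.2 and 1.01 to 2.94. Dendritic cell markers summed to 15.2 and 8.13 to 9.66 (conventional), and to 175.7 and 144.5 to 160.4 (plasmacytoid). Of 7 plasmacytoid markers 4 were more than 2-fold higher in library 2, with a median ratio of 20.8. Of 16 genes listed for Treg cells that return to the thymus 10 were, and of 6 T and Treg identity genes 0. Of the 10 B cell markers 8 were more than 2-fold higher in library 2, with a median ratio of 5.80. Pax5, also on that list, stood at 0.0721 CPM. The part of other cells in the excess of recombination transcripts was not tested. Comparisons of KO CD4SP with KO thymic Treg and with WT CD4SP cells are given with and without this library for the genes named there. Group means and the values of differences between KO effects include it.

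**Figure D1:**
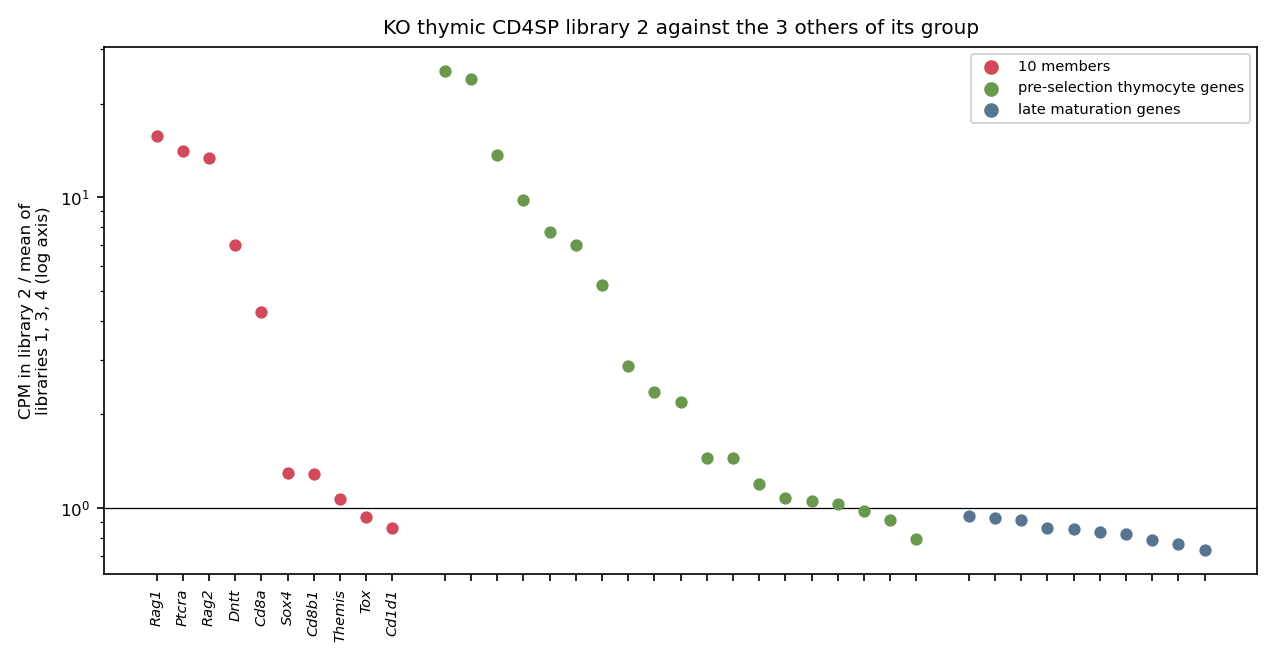
Ratio of the CPM in KO thymic CD4SP library 2 to the mean of libraries 1, 3 and 4 (log axis), for the 10 genes (red), pre-selection thymocyte genes (green) and late maturation genes (blue), 1 point per gene. Rag1, Ptcra, Rag2, Dntt and Cd8a stood at 4.26 or more, while Themis, Tox and Cd1d1 and the late maturation genes lay near or below 1.

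The recombinase genes were measured in the thymus and hardly at all in the spleen. In WT thymic Treg libraries 1, 2 and 3 Rag1 read 14.8, 2.20 and 7.67 CPM, and in the 4 KO libraries 4.93, 2.61, 1.88 and 2.98. WT CD4SP libraries read 3.49, 3.71 and 5.53. The WT Treg values spanned more than the other WT thymic group, and library 2 lay below all WT CD4SP libraries. In the spleen, Rag1 had 0 counts over 3 WT rTreg libraries and 1 count over 3 WT aTreg libraries, and 3 counts each over the 4 KO rTreg and the 4 KO aTreg libraries. Rag2 read 4.45, 2.43 and 2.66 CPM in WT thymic Treg cells, 3.13, 1.93, 0.958 and 0.704 in KO thymic Treg cells, and 3.26, 1.64 and 2.93 in WT CD4SP cells. No Rag2 count was found in any of the 14 splenic libraries. A count of 0 allows up to 3 counts, which is 0.0310 CPM over the WT rTreg libraries and 0.0345 over the WT aTreg libraries (counting error only).

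Ptcra, the pre-T alpha chain gene, had the same form at a lower level. It read 3.23, 1.23 and 2.29 CPM in WT thymic Treg cells, 1.86, 1.43, 2.43 and 0.507 in KO thymic Treg cells and 0.779, 1.77 and 2.23 in WT CD4SP cells. Its counts in the spleen were 0 over the WT rTreg libraries, 1 over KO rTreg, 2 over WT aTreg and 1 over KO aTreg. The 3 thymic groups overlapped, and no splenic library reached the lowest thymic one.

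Dntt was different in that it was still measured in the spleen. It read 40.4, 23.3 and 33.0 CPM in WT thymic Treg cells, 33.0, 15.6, 17.3 and 16.0 in KO thymic Treg cells and 47.8, 42.3 and 51.8 in WT CD4SP cells. Splenic rTreg cells held 6.19, 5.07 and 4.06 CPM in WT and 3.99, 2.87, 1.35 and 1.72 in KO, that is 488 and 290 counts in all. Splenic aTreg cells held 2.13, 0.442 and 0.598 in WT and 1.02, 0.825, 0.713 and 0.416 in KO. Every rTreg library was thus below every thymic library, and WT aTreg libraries were below all WT rTreg libraries.

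The genes of the 2 CD8 chains did not behave alike. CD8 alpha and CD8 beta, the products of Cd8a and Cd8b1, form the coreceptor of killer T cells and are present on CD4+CD8+ thymocytes. The genes lie 35932 bases apart on chromosome 6, Cd8b1 at chr6:71322788-71337494 and Cd8a at chr6:71373427-71379173, both on the plus strand. Cd8b1 stood at 88.8 ± 3.88 CPM in WT CD4SP cells, 43.8 ± 11.4 in WT thymic Treg cells, 38.3 ± 1.33 in WT rTreg and 22.4 ± 2.55 in WT aTreg cells (SD, n = 3 each). Cd8a stood at 6.21 ± 1.59, 9.25 ± 4.13, 7.05 ± 2.06 and 4.52 ± 0.601 CPM in the same order, and its WT groups overlapped except thymic Treg and aTreg. KO means were 94.6 ± 13.4, 41.1 ± 6.91, 33.7 ± 2.67 and 23.0 ± 2.08 CPM for Cd8b1 (n = 4 each). As a description over the 28 libraries, the log2 CPM of the pair had a Pearson r of 0.48, and 0.35 without KO CD4SP library 2.

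Sox4, Themis and Tox act in selection and lineage choice. SOX4 is a transcription factor of early lymphocytes, THEMIS is an adaptor of T cell receptor signalling that positive selection needs, and TOX is a nuclear protein needed for CD4 lineage development. Sox4 lies at chr13:28948919-28953713 (minus), Themis at chr10:28668360-28883818 (plus) and Tox at chr4:6686353-6991557 (minus). Sox4 stood at 24.4 ± 0.496 CPM in WT CD4SP cells, 17.9 ± 3.36 in thymic Treg, 4.78 ± 1.34 in rTreg and 0.724 ± 0.0646 in aTreg cells, and KO libraries ran from 27.8 ± 4.42 through 12.9 ± 2.08 and 3.999 ± 0.796 to 0.371 ± 0.207. Themis stood at 362 ± 19.9, 149 ± 14.5, 122 ± 9.52 and 44.0 ± 4.03 CPM in the WT order, and at 379 ± 13.5, 108 ± 10.4, 112 ± 7.25 and 45.7 ± 5.32 in KO. Tox had another order, with 292 ± 28.3 CPM in WT CD4SP cells, 562 ± 13.9 in thymic Treg, 295 ± 7.71 in rTreg and 442 ± 23.5 in aTreg cells. The WT CD4SP and rTreg values of Tox overlapped, and thymic Treg libraries were above all others in WT.

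Cd1d1 was lowest in aTreg cells in both genotypes, with no overlap with the other populations. It encodes CD1d, the molecule on CD4+CD8+ thymocytes that presents lipids to NKT cell precursors, and lies at chr3:86995834-86999441 (minus). It stood at 118 ± 7.71 CPM in WT CD4SP, 131 ± 10.5 in thymic Treg, 105 ± 5.62 in rTreg and 79.1 ± 6.01 in aTreg cells. KO means were 113 ± 8.72, 111 ± 2.30, 99.4 ± 2.77 and 84.4 ± 4.76 CPM.

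**Figure D2:**
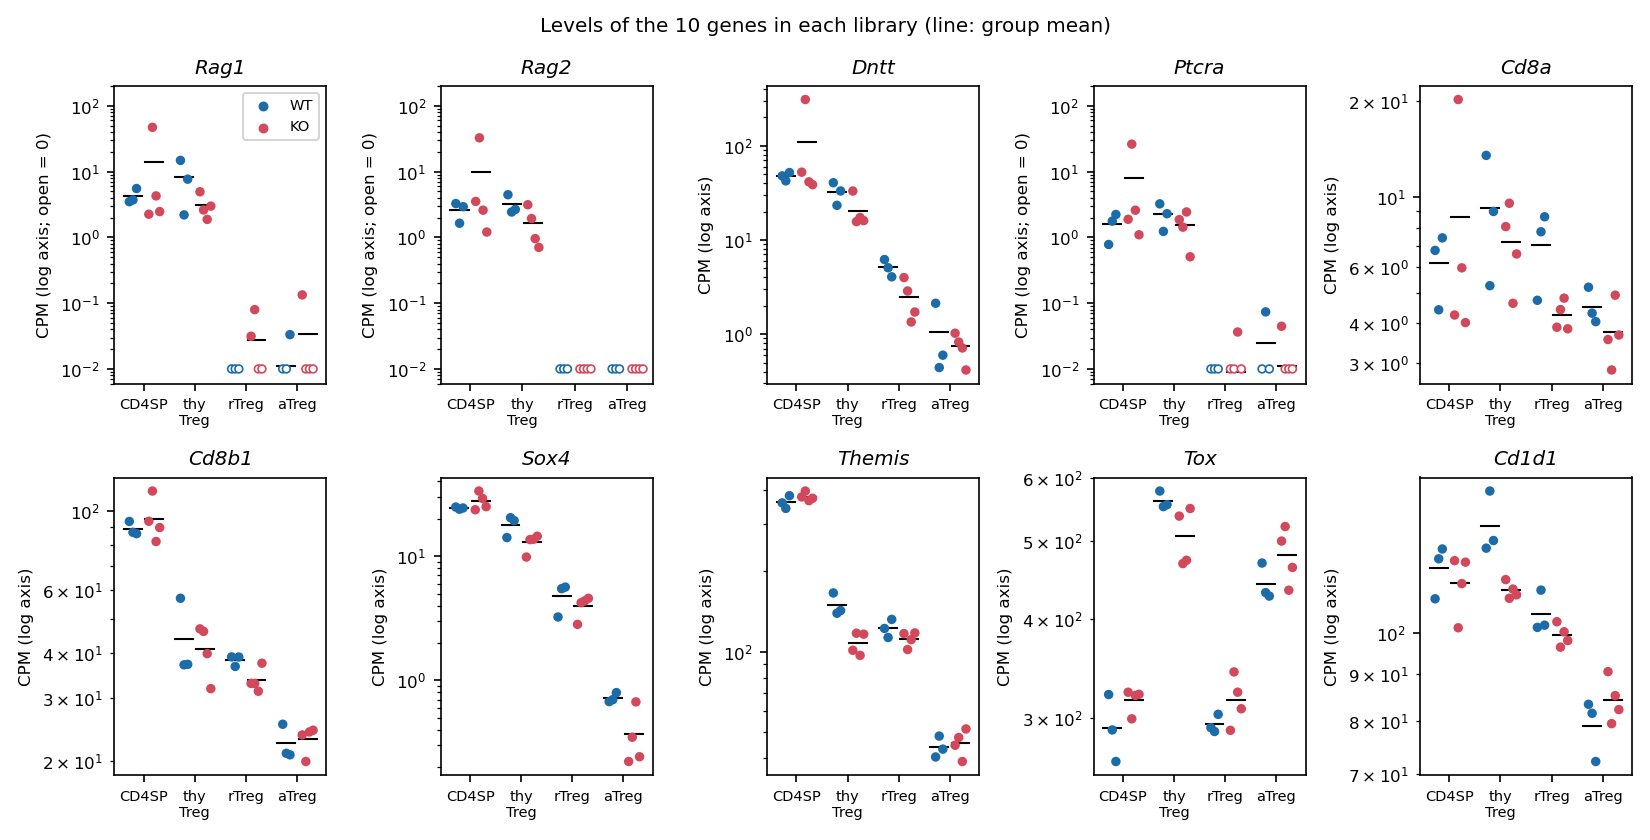
CPM of each gene in each library (log axis, 1 panel per gene) by population, with WT in blue (3 libraries) and KO in red (4 libraries), lines at group means and open circles for libraries with 0 counts, drawn at 0.01. Rag1, Rag2 and Ptcra are at or near 0 in the spleen, Dntt and Sox4 are lower in rTreg and lowest in aTreg cells, and Tox is high in thymic Treg and aTreg cells. The single high KO CD4SP point of Rag1, Rag2, Dntt, Ptcra and Cd8a is library 2.

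Per kilobase of exon, Tox and Cd1d1 were the most abundant of the 10 in WT thymic Treg cells, at 73.9 and 51.0 CPM per kb, and Rag1 and Rag2 the least, at 1.24 and 0.929. Dntt reached 14.1 and Themis 12.8 CPM per kb, a gap smaller than the SD of Dntt (3.75). In WT CD4SP cells Cd8b1 led instead, at 59.9 CPM per kb, ahead of Cd1d1 (45.8) and Tox (38.4), and Dntt stood at 20.6. In WT aTreg cells Tox led again, at 58.1, and Dntt was at 0.461 CPM per kb.

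Within the WT thymic Treg group most of the 10 genes had the same highest and the same lowest library. Library 1 was the highest for 8 of the 10 genes and library 2 the lowest for 8. How often this held over all genes was not counted. Several of the 10 ran together over all libraries (Rag1 and Rag2 at r = 0.98), so the 8 are not separate observations. Sox4 went the other way, with 14.1 CPM in library 1 and 20.4 and 19.3 in libraries 2 and 3, as did Cd1d1 (123.8, 143.0 and 126.2). The summed B cell markers of these 3 libraries were 37.7, 38.2 and 40.1 CPM, and the myeloid markers 382.8, 289.2 and 270.2. Their part in the spread was not tested.

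Thymic Treg and CD4SP cells were compared first, to see which of the genes separate Treg cells from conventional cells of the same organ. In WT mice Tox was higher in Treg cells, by 0.94 (SE 0.0784, adjusted p = 4.76e-11), and Themis and Cd8b1 were lower, at -1.28 (SE 0.0931, adjusted p = 2.97e-12) and -1.02 (SE 0.140, adjusted p = 7.38e-07). These were 3 of 10, where 26.8% of all genes were higher and 21.6% lower. The groups of all 3 did not overlap. Sox4 (-0.44, adjusted p = 0.0578), Dntt (-0.55, adjusted p = 0.392) and Cd1d1 (0.15, adjusted p = 0.0824) did not overlap either but missed the threshold. How many of all genes had groups without overlap was not counted, so the lack of overlap is only a description. In a fit of these 2 groups alone Sox4 and Dntt passed as lower (adjusted p = 0.00911 and 0.00668). With the replicate number as a block within genotype 5 of 10 passed, with Sox4 at -0.47 (adjusted p = 0.00947) and Cd1d1 at 0.15 (adjusted p = 0.0484) in addition. Rag1 (0.96, SE 0.765), Rag2 (0.29, SE 0.857), Ptcra (0.49, SE 0.776) and Cd8a (0.58, SE 0.413) varied so much between libraries that a difference was not detectable with these libraries. Markers of other cells differed between these groups. In WT Treg against CD4SP libraries the B cell sum was 37.7 to 40.1 against 7.69 to 9.39 CPM, the myeloid sum 270.2 to 382.8 against 94.2 to 100.2 and the CD8 T cell sum 280.8 to 299.4 against 16.8 to 21.1. That last sum leaves out the CD8 genes themselves. Cd8b1 was lower in Treg libraries (mean 43.8 against 88.8 CPM) and Cd8a stood at 9.25 against 6.21. Which cells carried the transcripts of these sums was not tested. With the myeloid sum in the model, Rag1 (-2.80), Rag2 (-3.82), Ptcra (-3.00) and Cd8a (-1.42) were called lower in Treg cells, and with the B cell sum they were as well (-2.86, -3.35, -3.24 and -1.36). The sums differ between the 2 groups by more than they vary within them, so population and markers cannot be told apart.

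The same contrast in KO mice turned on the library described above. With it, 7 genes were lower in Treg cells and Tox higher (0.68, SE 0.0677), 8 of 10 where 26.5% of all genes were lower and 30.0% higher. Without it, 5 of 10 passed. Rag1 went from -2.17 (adjusted p = 0.00921) to 0.06 (adjusted p = 0.926), Rag2 from -2.56 to -0.52 (adjusted p = 0.374) and Ptcra from -2.36 to -0.26 (adjusted p = 0.680). Dntt went from -2.42 to -1.10 and kept its call (adjusted p = 9.81e-04), so it passed with or without library 2. Themis (-1.81), Cd8b1 (-1.20) and Sox4 (-1.11) were lower in KO Treg cells as well, with adjusted p from 3.98e-17 to 2.78e-06 in the fit of all libraries. Without library 2 these 3 stood at -1.79, -1.10 and -1.01 (adjusted p from 6.31e-17 to 1.29e-05), and Tox at 0.66 (adjusted p = 9.28e-09).

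Counts of the other lists are read against the same shares of all genes, 26.8% higher and 21.6% lower. Of 19 tested pre-selection genes 5 were higher and 3 lower in WT thymic Treg than in CD4SP cells, near those shares, among them Bcl2l1, a survival gene (161 against 53.0 CPM), and Myb (95.3 against 21.8) as higher and Dtx1, a Notch target (4.18 against 23.5), as lower. Of 14 regulators of coreceptor and lineage choice 2 were higher and 11 lower, with Gata3 higher (400 against 161 CPM) and Tcf7 (573 against 1456) and Ikzf1 lower. Of 17 genes of double-strand break signalling and end joining, the pathway that seals RAG cuts, 2 were higher and 5 lower, including Polm, a polymerase related to Dntt, as higher (0.82, adjusted p = 1.18e-06).

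The step from thymus to spleen asks which of these transcripts Treg cells still hold outside the organ in which they arise. In WT rTreg cells 8 of 10 genes were lower than in thymic Treg cells and 0 higher, where 16.7% of all genes were lower and 13.9% higher. Folds of these genes are taken over pooled counts, 953, 354 and 255 for Rag1, Rag2 and Ptcra in the 3 WT thymic Treg libraries (8.73, 3.24 and 2.34 CPM pooled). Against the floor of 3 counts over the rTreg libraries, Rag1 was at least 282-fold lower (adjusted p = 4.46e-05), Rag2 at least 105-fold (adjusted p = 0.00116) and Ptcra at least 75.4-fold (adjusted p = 2.34e-04). The Rag1 bound was 171-fold without WT thymic Treg library 1, which held 582 of the 953 counts. Without WT rTreg library 3, the deepest of its group, the bounds were 175-fold, 64.9-fold and 46.8-fold. Dntt was lower, at -2.67 (SE 0.575), Sox4 at -1.90 (SE 0.207) and Tox at -0.93 (SE 0.0784). Cd1d1 (-0.32, SE 0.0731) and Themis (-0.29, SE 0.0924, adjusted p = 0.0196) had the smallest values of the 8, and the call on Themis was lost without any 1 of WT thymic Treg library 1 or WT rTreg libraries 1 and 2 (adjusted p = 0.147, 0.0526 and 0.102). Cd8b1 (-0.19, SE 0.141) and Cd8a (-0.40, SE 0.412) did not pass. The median log2 fold change of the 10 was -1.42, the same with genes at 0 counts set to their bounds, and that of all genes -0.01.

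In KO mice 7 of 10 were lower in rTreg than in thymic Treg cells, where 23.3% of all genes were lower and 19.6% higher. Themis, lower in WT, had a value of 0.05 here (SE 0.0805, adjusted p = 0.640), with 108 CPM in KO thymic Treg and 112 in KO rTreg cells. Rag2, with 0 counts, was at least 65.2-fold lower. Rag1, at 3 counts, was 123-fold lower, with a 95% Poisson interval of 41.8 to 600, and Ptcra, at 1 count, was 172-fold lower, an interval of 30.4 to 6821. Without KO rTreg library 2 Rag1 was 289-fold lower, on 1 count, and without library 3 Ptcra, then at 0 counts, was at least 43.7-fold lower. Dntt (-3.04, SE 0.546), Sox4 (-1.69, SE 0.184) and Tox (-0.68, SE 0.0677) were lower too. Cd1d1 (-0.16, adjusted p = 0.0394) lost its call without any 1 of KO thymic Treg libraries 1, 3 or 4 or of KO rTreg libraries 2, 3 or 4 (adjusted p = 0.0508 to 0.0934).

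Splenic aTreg cells lay further below thymic Treg cells than rTreg cells did for Sox4, Themis, Cd8b1 and Cd1d1 in both genotypes, and closer for Tox. Rag1, Rag2 and Ptcra had too few splenic counts to order the splenic populations. In WT 9 of 10 were lower and 0 higher, where 20.4% of all genes were lower and 19.9% higher, and in KO 9 of 10, where 21.3% were lower and 20.6% higher. Sox4 was lower, at -4.62 in WT (SE 0.261, adjusted p = 3.3e-14) and -5.12 in KO (SE 0.255). Dntt was lower, at -4.91 (SE 0.706) in WT and -4.80 (SE 0.662) in KO. Themis was lower, at -1.76 (SE 0.0964) and -1.24 (SE 0.0829), and Cd8b1 at -0.97 (SE 0.145) and -0.84 (SE 0.126). Rag2, at 0 counts, was at least 93.9-fold lower in WT and at least 60.0-fold in KO. Rag1 was 758-fold lower in WT, on 1 count, with a 95% Poisson interval of 136 to 29987, and 113-fold in KO, on 3 counts, with an interval of 38.5 to 552. Ptcra was 101.5-fold lower in WT (27.8 to 842) and 158-fold in KO (28.01 to 6277), on 2 and 1 counts. In WT, leaving out 1 library gave Rag1 at 461-fold (without thymic Treg 1), 499.8-fold (without aTreg 1) or at least 165-fold (without aTreg 3). Rag2 was then at least 61.9-fold or 61.4-fold lower (without aTreg 1 or 3), and Ptcra 66.9-fold, at least 46.5-fold or 66.3-fold (without aTreg 1, 2 or 3). In KO, Ptcra was at least 41.6-fold lower without aTreg library 1. Cd8a stood on the threshold in both genotypes (-1.04, adjusted p = 0.0511 in WT, and -0.95, adjusted p = 0.0432 in KO). Its KO groups overlapped, and its KO call was lost without any 1 of KO thymic Treg libraries 1, 2 or 4 or of KO aTreg libraries 1, 2 or 4 (adjusted p = 0.0548 to 0.120) and under DESeq2 (adjusted p = 0.0798). Tox was lower in WT by -0.34 (SE 0.0777) and did not pass in KO (-0.08, adjusted p = 0.356).

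**Figure D3:**
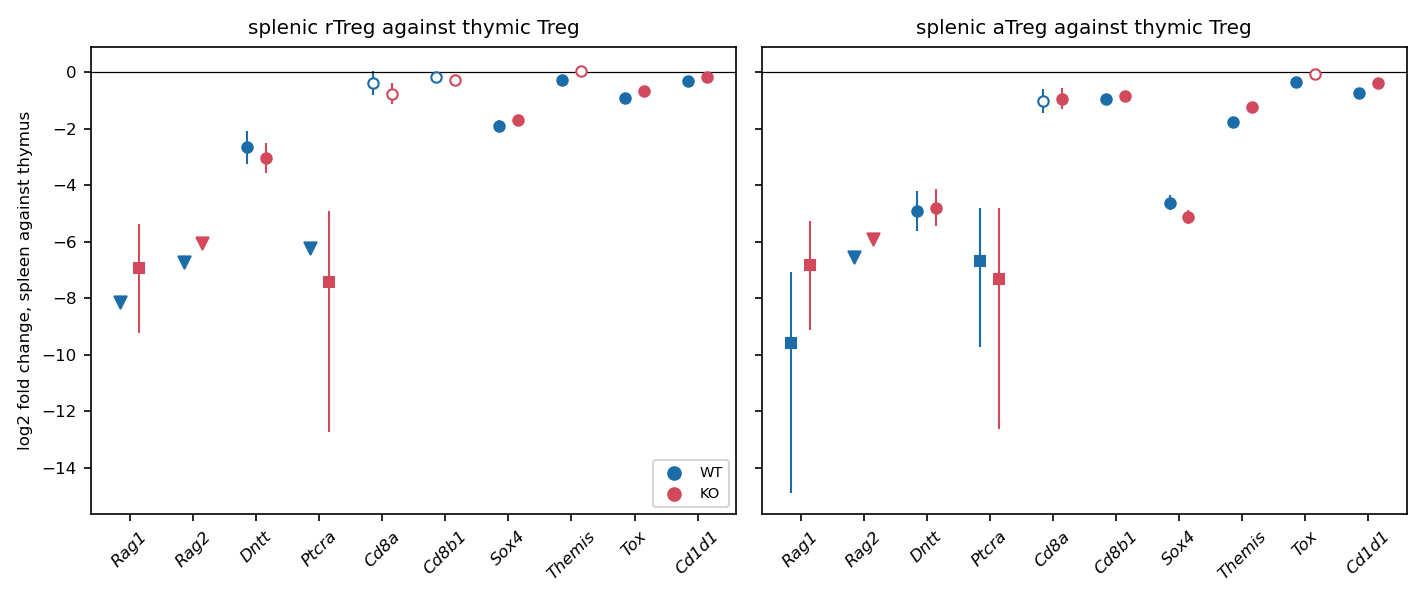
Log2 fold change of each gene in splenic rTreg (left) and aTreg cells (right) against thymic Treg cells, for WT (blue) and KO (red). Circles are edgeR values ± SE, filled where adjusted p was under 0.05. Squares are CPM ratios of groups with 1 to 3 splenic counts with 95% Poisson intervals, and triangles are bounds for groups with 0 counts. Rag1, Rag2 and Ptcra lie lowest, followed by Dntt and, in aTreg cells, Sox4 near -5.

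The 2 splenic populations separated the genes again. In WT aTreg cells 5 genes were lower than in rTreg cells, where 18.1% of all genes were, and Tox was higher by 0.59 (SE 0.0781, adjusted p = 8.15e-07), where 19.9% of all genes were higher. Sox4 was lower, at -2.72 (SE 0.270), Dntt at -2.25 (SE 0.760, adjusted p = 0.0204), Themis at -1.48 (SE 0.0959), Cd8b1 at -0.77 (SE 0.145) and Cd1d1 at -0.41 (SE 0.0737). The Dntt call was lost without WT rTreg library 1 or WT aTreg libraries 2 or 3 (adjusted p = 0.0594 to 0.0884). In KO, Sox4 (-3.43), Themis (-1.29), Cd8b1 (-0.55) and Cd1d1 (-0.24) were lower, 4 of 10 where 19.9% of all genes were, and Tox was higher (0.60, SE 0.0676), where 21.7% were. Dntt had the same sign (-1.76, SE 0.788) and missed the threshold (adjusted p = 0.0746), although its KO groups did not overlap. It passed with the replicate number as a block within genotype (-1.84, adjusted p = 0.0281), under DESeq2 (adjusted p = 0.0134) in a fit of these 2 groups alone (adjusted p = 0.00175), and with the myeloid sum (-3.34, adjusted p = 6.2e-05) or the B cell sum (-2.54, adjusted p = 2.24e-05) in the model. Rag1, Rag2 and Ptcra had 0 to 3 counts per group in the spleen and allow no fold.

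The other lists differed in their counts between WT rTreg and thymic Treg cells, where 13.9% of all genes were higher and 16.7% lower. Of 19 pre-selection genes 10 were lower and 2 higher in WT rTreg than in thymic Treg cells, with Bcl6 (21.0 against 45.7 CPM) as lower and Dtx1 (35.9 against 4.18) as higher. Of 10 tested genes of late maturation and emigration 9 were higher and 0 lower, led by Ly6c1 (344 against 20.6 CPM) and Cd55 (77.2 against 22.3). Of 17 end joining genes 2 were higher, Nbn and Atm, and 1 lower, Nhej1, no more than those shares, and 14 did not pass the test. In WT aTreg against rTreg cells, where 19.9% of all genes were higher and 18.1% lower, the late maturation genes had 0 higher and 6 lower, among them S1pr1, the egress receptor (272 against 822 CPM). Markers of other cells differed between organs as well, in both directions. From WT thymic Treg to rTreg and aTreg libraries the B cell sum was 37.7 to 40.1, 75.1 to 91.6 and 105.0 to 135.9 CPM. The myeloid sum was 270.2 to 382.8, 120.4 to 129.0 and 306.6 to 377.9, and the CD8 T cell sum 280.8 to 299.4, 49.6 to 57.2 and 247.1 to 262.4. The sum of 7 plasmacytoid dendritic cell markers was 165.6 to 171.9, 105.6 to 116.7 and 105.9 to 145.2 CPM. The sum of 9 handling stress genes was 146.0 to 177.7 in WT thymic Treg, 758.2 to 899.9 in WT rTreg and 625.7 to 771.9 in WT aTreg libraries, and 1024 to 1773 and 972.3 to 1446 in the KO splenic groups against 202.2 to 270.8 in KO thymic Treg libraries. The part of these in the differences between organs was not tested.

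Loss of the enhancer was compared next, in each population. In thymic Treg cells 2 of 10 genes were lower in KO and 0 higher, where 5.13% of all genes were lower and 4.21% higher. The KO libraries held 101.2, 117.2, 96.9 and 116.3 CPM of Themis and the WT libraries 165.8, 139.2 and 142.5, with no overlap. Its log2 fold change was -0.47 (SE 0.0860, adjusted p = 0.00127). The KO libraries held 114.4, 109.1, 111.7 and 110.0 CPM of Cd1d1 and the WT libraries 123.8, 143.0 and 126.2, also with no overlap, for -0.24 (SE 0.0681, adjusted p = 0.0277). Themis passed without any 1 library (-0.51 to -0.38, adjusted p = 0.00107 to 0.0195). Cd1d1 did not pass without WT library 2 (-0.17, adjusted p = 0.199), KO library 2 (adjusted p = 0.0559) or KO library 3 (adjusted p = 0.0553).

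The other 8 genes had negative log2 fold changes too, so all 10 were below 0, as were 47.5% of all genes. The members' median was -0.47 and that of all genes 0.02. Several of the 10 ran together over all libraries (Rag1 and Rag2 at r = 0.98), and WT library 1 was the highest WT library for 8 of them. The 10 signs are therefore not separate observations. Rag1 had the value farthest from 0 (-1.40, SE 0.715, adjusted p = 0.210), and its groups overlapped, since WT library 2 read 2.20 CPM. Rag2 (-0.92, SE 0.810), Dntt (-0.65, SE 0.481) and Ptcra (-0.55, SE 0.727) were of the same kind. Sox4 (-0.48, SE 0.181, adjusted p = 0.0928) and Tox (-0.15, SE 0.0724, adjusted p = 0.191) were measured more closely, and Cd8a stood at -0.36 (SE 0.383) and Cd8b1 nearest to 0, at -0.09 (SE 0.132).

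Libraries of the 2 genotypes differed in other measures that bear on these values. Reads outside genes made up 46.3 to 49.3% in WT and 42.3 to 45.02% in KO thymic Treg libraries, out of reads in genes, outside genes or ambiguous. With that share in the model Themis did not pass (-0.22, adjusted p = 0.590), nor did Cd1d1 (-0.29, adjusted p = 0.320). The shares of the genotypes did not overlap, so genotype and share cannot be told apart in this fit. The summed myeloid markers were 270.2 to 382.8 CPM in WT and 413.6 to 972.0 in KO, the B cell markers 37.7 to 40.1 and 54.7 to 59.2, and the CD8 T cell markers 280.8 to 299.4 and 436.8 to 503.3. That last sum leaves out Cd8a (mean 9.25 in WT and 7.22 CPM in KO) and Cd8b1 (43.8 and 41.1). Which cells carried the transcripts of these sums was not tested. Of the 9 myeloid markers 0 had no counts in these groups, and of the 10 B cell markers Pax5 had none in WT. With the myeloid sum in the model the Themis value was -0.52 (adjusted p = 0.00767) and with the B cell sum -0.49 (adjusted p = 0.00175). Cd1d1 did not pass in either (adjusted p = 0.350 and 0.0912). In the same fits Rag1, Rag2, Dntt and Ptcra, which did not pass without the sums, passed as lower in KO. With the myeloid sum Rag1 was at -3.23 (adjusted p = 0.00195), Rag2 at -3.39, Dntt at -2.03 and Ptcra at -2.40, and with the B cell sum they were at -2.39 (adjusted p = 0.00135), -1.84, -1.35 and -1.49. Cd8a (-1.46) and Cd8b1 (-0.45) passed with the myeloid sum. The B cell sums of the genotypes did not overlap and neither did the myeloid sums, so genotype and markers cannot be told apart in these fits. Without both KO libraries 1 and 2, which had the highest myeloid sums (731.3 and 972.0 CPM), Themis stood at -0.48 (adjusted p = 0.0107) and Cd1d1 at -0.24 (adjusted p = 0.113).

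The other lists are read against the 5.13% of all genes that were lower and the 4.21% higher in KO thymic Treg cells. Of 14 coreceptor and lineage regulators 4 were lower and 0 higher: Satb1, a chromatin organiser of thymocytes (255 against 365 CPM, -0.52, adjusted p = 8.12e-05), Ikzf1 (-0.38), Bcl11b (-0.27) and Tcf7 (-0.25), the last of which was named after its values were seen. Of 19 pre-selection genes 1 was lower, near the share of all genes, Bcl6 (-0.47, adjusted p = 0.0366). Of 17 end joining genes Prkdc (-0.37) and Lig4 (-0.42) were lower and Hmgb2 higher (0.48). Of 14 selection signalling genes 1 was lower, again near that share, Rasgrp1 (-0.39, adjusted p = 0.00115). Of 16 genes listed for Treg cells that return to the thymus 8 were higher and 0 lower, led by Klrg1 (19.9 against 9.13 CPM), Id2 (131 against 78.6) and Gzmb (33.1 against 11.4). The summed level of that list was 1652 to 1982 CPM in KO and 1229 to 1413 in WT libraries, and its part in the lower Themis and Cd1d1 levels was not tested. These lists were set with earlier results of these libraries in view, so their directions are not independent evidence.

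In CD4SP cells 0 of 10 genes passed between KO and WT, where 0.195% of all genes did. By an unadjusted p under 0.05 there were 4, and DESeq2 called 0. The share of all genes with an unadjusted p under 0.05 is not given, here or below. The shares printed are for adjusted p, so counts by unadjusted p cannot be read against them. The median of the 10 was 0.33 and that of all genes 0.00. Without library 2, Ptcra went from 2.30 (SE 0.762) to 0.20, Rag2 from 1.94 to -0.10, Rag1 from 1.72 to -0.50 and Dntt from 1.22 to -0.10. Themis (0.07, SE 0.0856) and Cd1d1 (-0.05, SE 0.0683) were measured most closely there, together with Tox (0.11, SE 0.0730). Without library 2 Themis stood at 0.05, Cd1d1 at -0.002 and Tox at 0.14.

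In the spleen 0 of 10 passed in rTreg cells, where 0.135% of all genes did, and 0 of 10 in aTreg cells, where 0.0300% did. Unadjusted p-values under 0.05 numbered 0 in rTreg and 1 in aTreg cells, and DESeq2 called 0 in each. Dntt was lower in each KO rTreg library (1.35 to 3.99 CPM) than in any WT library (4.06 to 6.19), but the value of -1.03 (SE 0.615) did not pass (adjusted p = 0.872). Sox4 in aTreg cells also did not overlap, at 0.223 to 0.671 CPM in KO and 0.675 to 0.797 in WT (-0.98, SE 0.365, adjusted p = 0.582), on 39 and 63 counts in all. Themis differed by -0.13 (SE 0.0866) in rTreg and 0.06 (SE 0.0901) in aTreg cells.

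**Figure D4:**
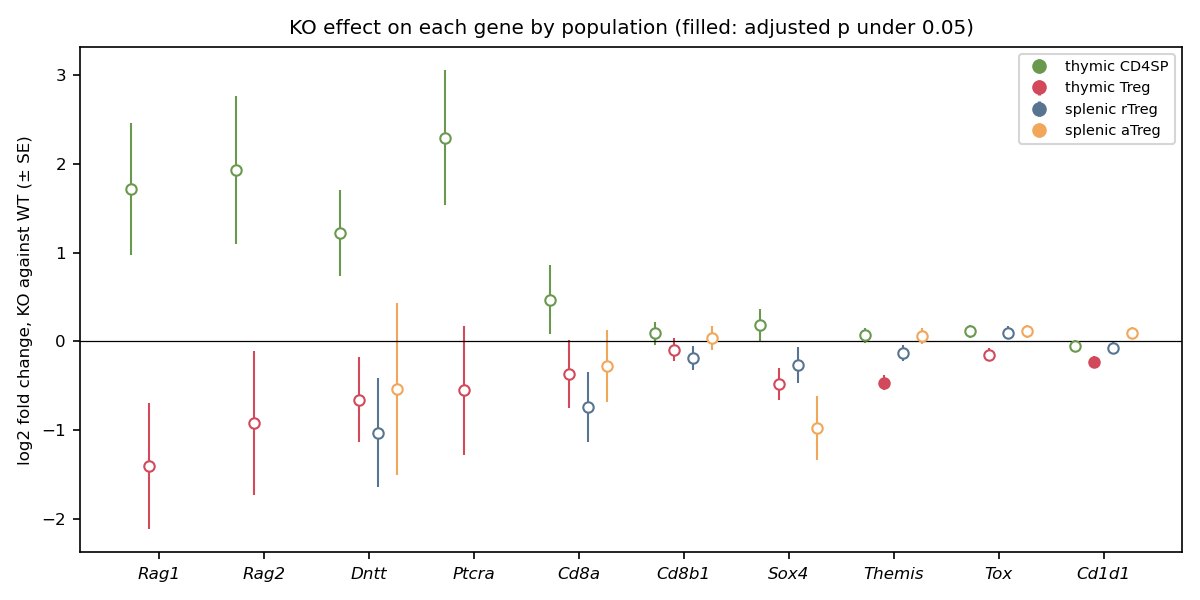
Log2 fold change of KO against WT ± SE for each gene in CD4SP (green), thymic Treg (red), rTreg (blue) and aTreg cells (orange), filled where adjusted p was under 0.05. Genes with 3 or fewer counts in a group are left out for that population. Only Themis and Cd1d1 in thymic Treg cells are filled, and the high CD4SP points of Rag1, Rag2, Dntt and Ptcra rest on KO library 2.

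Whether the KO effect differed between populations was tested directly, over 4 pairs of populations. Themis was the gene that passed. Its KO effect was lower in thymic Treg than in CD4SP cells by -0.54 (SE 0.122, adjusted p = 0.0315), 1 of 10 genes where 0.300% of all genes were lower, and higher in aTreg than in thymic Treg cells by 0.52 (SE 0.125, adjusted p = 0.0384), 1 of 10 where 0.360% were higher. Both comparisons share the thymic Treg libraries. Neither call was firm. The first was lost without WT thymic Treg library 1, KO thymic Treg libraries 1 or 3 or WT CD4SP libraries 1 or 2 (adjusted p = 0.0653 to 0.133), and the second without any 1 of 9 libraries (adjusted p = 0.0599 to 0.138), namely WT thymic Treg 1 and 2, KO thymic Treg 1 and 3, WT aTreg 1 and 3, and KO aTreg 1, 2 and 4. Between rTreg and thymic Treg cells the difference for Themis was 0.34 (SE 0.122, adjusted p = 0.370), and 0 of 10 passed where 0.0300% of all genes did. Between aTreg and rTreg cells 0 of 10 passed where 0% of all genes did. In these last comparisons 2 and 0 of the 10 had an unadjusted p under 0.05, and DESeq2 called 0 in each.

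Genes whose levels ran most closely with each member over the 28 libraries were listed by Pearson r of log2 CPM, as a description. The libraries fall into 8 groups, so a high r can come from a shared order of groups. Chl1 was closest to Rag1 (r = 0.94) and Rag2 (0.94), and Endou to Ptcra (0.94). Dntt ran with Pyroxd2 (0.96), Sox4 with the chemokine receptor gene Ccr7 (0.98), Cd8b1 with Tcf7 (0.97), and Themis with Amigo2 (0.99) and Satb1 (0.99). Tox ran with Cd99l2 (0.94), Cd1d1 with Pcmtd2 (0.92) and Cd8a with Rmnd5a (0.78), the lowest of the closest. Among the members Rag1 and Rag2 had r = 0.98, Rag2 and Ptcra 0.98 and Cd8b1 and Themis 0.96, while Tox had -0.54 with Themis and -0.50 with Cd8b1. Without KO CD4SP library 2 these 5 values were 0.98, 0.97, 0.96, -0.52 and -0.46.

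Some reads of these genes may belong to neighbours, since the sources used here do not say whether counting used strand. In the GENCODE M21 annotation, exons of B230118H07Rik share 80 bases with Rag1 and 208 with Rag2, and exons of 4930519F09Rik share 153 bases with Themis. Exons of Gm26735 on the opposite strand share 2616 bases with Sox4 and those of Gm11802 share 260 with Tox, and neither has a row in the count files.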

How the data were processed

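Gene expression was measured by RNA-seq in 28 libraries of sorted CD4 T cells, 3 WT and 4 KO for each of 4 populations. Per the labels' protocols, RNA taken in TRIzol was amplified with the SMART method and sequenced as paired ends. The authors deposited raw counts per gene symbol for each library, and the submitters' processing notes name Trimmomatic, STAR, HTSeq and the mm10 genome, with versions, annotation and use of strand not given in the sources used here. Rows that name no gene were left out of library sizes. Reads in no gene were 42.3 to 49.7% of those in genes, in no gene or ambiguous. Non-unique alignments are outside that share and were 22.8 to 30.4% of the sum over all rows. Gene counts were scaled by TMM, filtered by expression and fitted with edgeR 4.0.16 (R 4.3.3) in 1 model of 8 groups with 20 residual degrees of freedom. The quasi-likelihood test gave p-values for 16 comparisons, adjusted over 13338 genes within each. It was tested on simulated data. Alternatives, including DESeq2 1.42.0, fits without each library and fits with covariates, are under the closing section. The members and the gene lists were chosen with earlier results of these data known. The 10 members are named throughout, with 3 genes or fewer of each list, those with the smallest p past the test, except where a gene is said to be named after its values were seen, and the closest genes by correlation (log2 CPM, prior count 2, at least 8 CPM in 1 group). Promoter sequences are RefSeq's. Intervals and floors cover counting error only, since reads carried no molecular identifiers that the labels name. Replicate pairs differed by more than sampling noise (chi-square per degree of freedom 7.08 to 37.6), so none were merged. Deviations of same-numbered libraries from their group means correlated with r over 0.1 in 5 of 12 KO and WT pairs and in 15 of 28 pairs of populations of 1 genotype. Every pair did so for 2 comparisons, WT thymic Treg against CD4SP (0.107 to 0.133) and KO aTreg against rTreg (0.121 to 0.232), where values with the number as a block are given beside the results. One gene of the late maturation list is not reported here.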

Additional observations from a re-analysis of the deposited data

Results flagged for a closer look

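In KO CD4SP library 2 the values of 6 genes stood apart from the other 3 libraries of the group: Rag1 at 47.1 CPM, Rag2 at 32.6, Dntt at 309, Ptcra at 26.2 and Cd8a at 20.2, each above them, and Tox at 299, below them. In KO thymic Treg library 1 Dntt stood above the rest, at 33.0 CPM. In the spleen, KO aTreg library 2 was low for Cd8b1 (20 CPM), and KO aTreg library 1 alone held counts of Rag1 (0.133 CPM) and Ptcra (0.0445 CPM). KO rTreg library 3 alone held Ptcra, at 0.0364 CPM. These last 3 values rest on 1 to 3 counts each. A library was listed when its gap to its nearest neighbour was large for the range of a group of 4. In all 38 gene and group combinations were examined and 11 listed. The rule lists about 1 in 20 of independent, normally spread values, which these are not. A combination with counts in 1 library only is always listed, and 6 of the 11 came from KO CD4SP library 2. The 11 can therefore not be read against that rate.

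The KO effect on Themis differed between populations by its own test. It was lower in thymic Treg than in CD4SP cells by -0.54, and higher in aTreg than in thymic Treg cells by 0.52. Neither call was firm, since each was lost without any 1 of several libraries. Both were also lost against a fold of 1.2 (glmTreat, adjusted p = 0.462 and 0.401).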

How the results depend on the processing

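Of 2881 single values of the 10 genes under an alternative, 2736 kept their direction and side of the threshold, 84 lost the call, 48 gained it and 13 reversed. Signs were read only where a value was called, and 81 uncalled values changed sign. No cause of these changes was tested. Counts below are of the 10 genes past the threshold. Against a fold of 1.2 (glmTreat), the KO effect in thymic Treg cells went from 2 to 0, and the differences of thymic Treg from CD4SP and of aTreg from thymic Treg effects from 1 to 0 each. With only the libraries compared, these were 1, 0 and 0, and WT thymic Treg against CD4SP cells went from 3 to 5. Without both KO thymic Treg libraries 1 and 2 they were 1, 0 and 0. With reads outside genes as a covariate (their share) they were 0, 0 and 0, and KO rTreg against thymic Treg cells went from 7 to 3, while calls over all genes went from 5724 to 1340. With the myeloid sum they were 7, 5 and 0, WT thymic Treg against CD4SP was 8 (4143 over all genes) and KO rTreg against thymic Treg 3 (820 over all genes). With the B cell sum the KO effect in thymic Treg cells was 5 and WT thymic Treg against CD4SP 8 (3350 over all genes). The reported fit of that last comparison called 6447 genes. Counts over all genes are not given for that KO effect with the B cell sum, nor for WT thymic Treg against CD4SP with only the libraries compared. DESeq2 gave 2 for the difference of aTreg from thymic Treg effects. Leaving out 1 library gave 1 to 2 for the KO effect in thymic Treg cells, 0 to 1 for each of those differences and 5 to 8 for KO thymic Treg against CD4SP cells. Over all genes, the KO effect in thymic Treg cells was called for 1246, and for 81 against a fold of 1.2, 45 with reads outside genes, 395 with the myeloid sum and 450 without both KO libraries 1 and 2. The difference of thymic Treg from CD4SP effects was called for 82 genes, and for 15, 3 and 178 under the first 3 of these settings.

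Rag1 reversed in KO thymic Treg against CD4SP cells without KO CD4SP library 2 (0.057), and leaving out 1 library gave -2.52 to 0.057. With the myeloid sum, WT thymic Treg against CD4SP reversed for Rag1 (-2.80), Rag2 (-3.82), Ptcra (-3.00) and Cd8a (-1.42). Against thymic Treg cells Cd8a reversed in WT rTreg (1.21), KO rTreg (1.99) and KO aTreg (0.61), and Dntt in KO rTreg (0.46). With the B cell sum, WT thymic Treg against CD4SP reversed for Rag1 (-2.86), Rag2 (-3.35), Ptcra (-3.24) and Cd8a (-1.36). The covariates differ between populations, so population and covariate cannot be told apart there.

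Same-numbered libraries deviated together in every pair only for WT thymic Treg with CD4SP and KO aTreg with rTreg cells. With the replicate block across all groups, no count moved by over 1.5 times, and the KO effect in thymic Treg cells was called for Sox4 too (-0.49, adjusted p = 0.0239), WT aTreg against thymic Treg for Cd8a (-1.06, adjusted p = 0.0474), WT thymic Treg against CD4SP for Sox4 (-0.47, adjusted p = 0.00810), and KO thymic Treg against CD4SP no longer for Rag1 (-1.59, adjusted p = 0.0690). With the replicate block within genotype, WT thymic Treg against CD4SP went from 3 to 5 and KO aTreg against rTreg from 5 to 6, with no other call of the 10 changed in these 2 comparisons. RLE size factors moved no count by that much. Depth limits Rag1, Rag2 and Ptcra in the spleen, at 0 to 3 counts per group.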
